A study of Mus musculus with 12 samples.

Results

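Siglech, Cox6a2, Tcf4, Spib, Ly6d and Pacsin1, 6 of the 12199 genes in the deposited count table, are genes of plasmacytoid dendritic cells. They were found by their gene symbols, and all 6 were present. They were selected on values of these libraries, since Siglech and Cox6a2 were nearly absent from DF bone marrow and remained in TF bone marrow. Differences among WT, DF and TF libraries are therefore given for these genes as a description, with no test. The rule for the choice uses no TFD value, and TFD versus WT was tested for all but Cox6a2.

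RNA was sequenced from bone marrow mononuclear cells of C57BL/6 mice of 4 genotypes. DF mice carried Dnmt3aFlox/+, the MxCre transgene and Flt3 ITD/+. TF mice were Tet2+/- and Flt3 ITD/+ with neither the floxed allele nor Cre, and TFD mice carried Tet2+/-, Flt3 ITD/+, Dnmt3aFlox/+ and MxCre. Wild type mice (WT) carried none of these alleles. Dnmt3a adds methyl groups to DNA, Tet2 oxidizes them, and the ITD is a tandem duplication that activates the receptor tyrosine kinase Flt3. Poly(I:C), a double-stranded RNA mimic that induces interferon and through it the MxCre recombinase, had been given to mice of every genotype as young adults. MxCre is active in every interferon-responsive cell and not in one lineage, and WT mice came from a core facility rather than being stated to be littermates. There were 3 WT, 3 DF, 3 TF and 2 TFD libraries, and TFD replicate 3 was not analysed here.

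Plasmacytoid dendritic cells form in the bone marrow and are known for making large amounts of type I interferon when Tlr7 or Tlr9 detects viral nucleic acid. The E protein Tcf4 (E2-2) is the transcription factor that sets and keeps their identity, and the Ets family factor Spib acts with it. Siglech is a surface lectin that marks these cells in the mouse, Ly6d is a surface protein of plasmacytoid and B lineage progenitors, and Pacsin1 is an endocytic adaptor needed for their interferon response. Cox6a2 is an isoform of a cytochrome c oxidase subunit, best known from heart and skeletal muscle and also expressed in plasmacytoid cells. These genes come from a bulk tissue, so fewer cells of a type and less RNA per cell cannot be told apart, and which cells the reads of these 6 genes came from was not measured.

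On mm10, Siglech lies on the plus strand at chr7:55768178-55778833, Spib on the minus strand at chr7:44525995-44532071 and Cox6a2 on the minus strand at chr7:128205435-128206366. Ly6d lies on the minus strand at chr15:74762056-74763567 and Pacsin1 on the plus strand at chr17:27655591-27711117. RefSeq (GRCm38.p6) promoter entries matched 3 of the 6 genes: Siglech, Spib and Pacsin1. The 250 bases before the RefSeq start are shown for Siglech and for Spib, the gene most like it in pattern, with capitals on CACCTG, one form of the E-box CANNTG that E proteins such as Tcf4 bind. The Siglech window is at chr7:55767934-55768183 (plus strand) and the Spib window at chr7:44532072-44532321 (minus strand).
Siglech: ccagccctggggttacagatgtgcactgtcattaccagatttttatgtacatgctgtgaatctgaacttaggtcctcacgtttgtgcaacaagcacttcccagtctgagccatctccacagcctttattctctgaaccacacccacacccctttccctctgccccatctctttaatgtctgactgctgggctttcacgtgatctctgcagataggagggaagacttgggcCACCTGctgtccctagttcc
Spib: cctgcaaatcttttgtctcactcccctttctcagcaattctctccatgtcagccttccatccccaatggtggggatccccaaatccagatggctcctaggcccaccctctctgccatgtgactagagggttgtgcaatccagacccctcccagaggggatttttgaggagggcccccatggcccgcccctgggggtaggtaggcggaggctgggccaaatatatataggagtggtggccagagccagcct
Both strands were searched. CACCTG occurred once in the Siglech window, from 20 to 15 bases before the start, and was not found in the Spib or Pacsin1 windows, while 17.2% of 32851 promoter windows of this length held it. CANNTG, which includes CACCTG, matched 3 times in the Siglech window, 2 times in the Spib window and 0 times in the Pacsin1 window, against 66.2% of windows with at least 1 match. The Ets motif GAGGAA, found in 23.3% of windows, had 0 matches in these 3. The Pacsin1 window, at chr17:27684989-27685238, belongs to a start downstream of the first exon in the counted gene model. A match describes these letters and is not evidence of binding.

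Values are counts of reads per gene, and CPM, in which counts are scaled to library totals with TMM factors. Totals ranged from 8274153 to 15900904 counts, with 8274153 to 11682062 in WT, 10937204 to 15900904 in DF, 10812015 to 12347847 in TF and 11115255 to 15496378 in TFD. The X inactivation transcript Xist had 30976 to 42152 counts in WT replicate 3, TF replicate 3 and TFD replicate 2, 538 in DF replicate 1 and 18 to 32 in the other libraries. Ddx3y, a gene of the Y chromosome, had 3, 12 and 4 counts in WT replicate 3, TF replicate 3 and TFD replicate 2. It had 1040 to 2132 counts in the other libraries. By these genes the Xist-rich libraries read as female and the others as male. The Xist-rich libraries thus include no DF library, and sex was not balanced across genotypes. TF replicate 3 stood apart from the other TF libraries in the values below, and results that rest on it are given with and without it. Of the targeted genes, Tet2 had 148 to 169 CPM in WT, 136 to 205 in TF and 163 and 209 in TFD, and did not pass the test against WT in TF (log2 fold change 0.20, SE 0.16) or TFD (0.25, SE 0.17). Dnmt3a had 30.9 to 57.8 CPM in WT, 38.0 to 46.4 in DF and 54.4 and 58.6 in TFD, and did not pass in DF (-0.15, SE 0.21) or TFD (0.29, SE 0.23). Reads summed over a gene need not show the loss of an exon on one allele. Flt3, at 20.8 to 30.1 CPM in WT, was higher in DF (0.93, SE 0.28), TF (1.38, SE 0.28) and TFD (1.94, SE 0.30), with edgeR quasi-likelihood adjusted p of 0.018, 0.0023 and 0.00055. In DF the Flt3 call was lost without WT replicate 2, WT replicate 3 or DF replicate 1 (adjusted p 0.0632, 0.0836 and 0.0936).

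**Figure D1:**
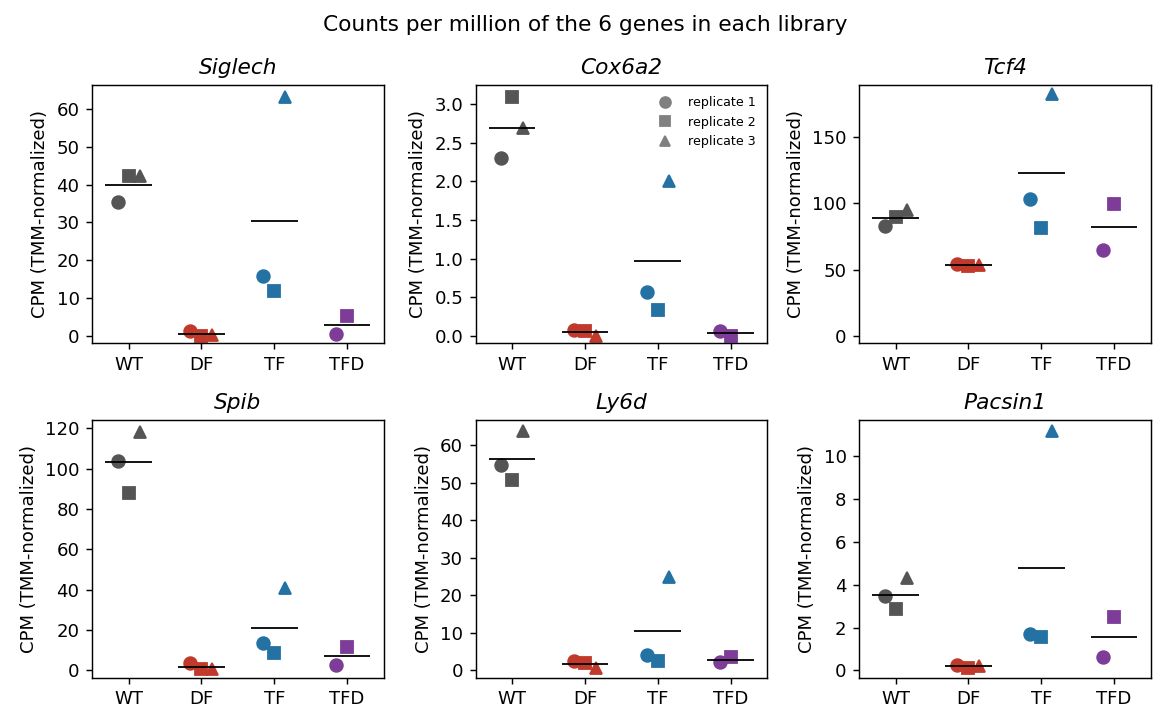
CPM (TMM-normalized, linear axes) of the 6 genes by genotype, with 1 point per library, a marker shape per replicate number and a line at the group mean. DF points of Siglech, Cox6a2, Spib, Ly6d and Pacsin1 lie near 0, TF replicate 3 is the highest TF library for every gene, and Tcf4 stays above 50 CPM in each library.

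Siglech, the surface lectin, had similar levels in the WT libraries and was almost absent from DF. It had 432, 341 and 472 counts in WT (35.5, 42.2 and 42.3 CPM) and 17, 1 and 1 in DF (1.35, 0.0644 and 0.0990 CPM). In TF it had 195, 146 and 693 counts (15.8, 11.9 and 63.2 CPM), and in TFD 8 and 59 (0.5003 and 5.26 CPM). WT and DF libraries did not overlap, whereas TF spanned WT, with replicates 1 and 2 below every WT library and replicate 3 above. The group means were 39.98 CPM ± 3.90 (SD, n = 3) in WT, 0.504 ± 0.732 (n = 3) in DF, 30.3 ± 28.6 (n = 3) in TF and 2.88 ± 3.36 (n = 2) in TFD. DF thus held 1.26%, TF 75.8% and TFD 7.20% of the WT mean, and TF held 34.6% without replicate 3. By library, DF held 0.161% to 3.38% of the WT mean, and DF replicate 1 was 16.5-fold the mean of the other DF libraries. By mean the order was WT, TF, TFD, DF. Of the neighbours, WT and TF overlapped, TF and TFD did not, and TFD and DF did through DF replicate 1 only.

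Cox6a2, the cytochrome c oxidase isoform, followed the same order for WT, TF and DF at far lower counts. Its counts were 28, 25 and 30 in WT (2.30, 3.09 and 2.69 CPM), 1, 1 and 0 in DF, 7, 4 and 22 in TF (0.566, 0.327 and 2.01 CPM) and 1 and 0 in TFD. No mutant library reached the lowest WT library. Summed over libraries, WT held 83 counts, TF 33, DF 2 and TFD 1. The gene exceeded 0.5 CPM only in the WT libraries and in TF replicates 1 and 3, so it passed the filter on low values only through the groups in which it was high, and no test is given for it. DF and TFD (0 or 1 count in each library) cannot be ranked at this depth.

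Tcf4, the E protein that maintains plasmacytoid identity, differed least between genotypes. The gene spans 69344492 to 69687967 on the plus strand of chromosome 18 in mm10, with 7681 bases of exons. It had 1010, 728 and 1061 counts in WT (82.9, 90.1 and 95 CPM), 678, 823 and 543 in DF (53.8, 53.0 and 53.7 CPM), 1281, 997 and 2007 in TF (103.5, 81.6 and 183.1 CPM) and 1040 and 1118 in TFD (65.04 and 99.6 CPM). The DF libraries were close to each other and below every other library, at 59.9% of the WT mean, while TF and TFD each overlapped WT. TF averaged 137% of WT, or 104% without replicate 3. Tcf4 is transcribed in other marrow cells too, and how much of its level came from plasmacytoid cells was not measured.

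Spib, the Ets factor, was lower in all mutant libraries than in WT. Its counts were 1266, 712 and 1322 in WT (103.9, 88.1 and 118.4 CPM), 45, 15 and 9 in DF (3.57, 0.965 and 0.891 CPM), 171, 106 and 448 in TF (13.8, 8.67 and 40.9 CPM) and 41 and 130 in TFD (2.56 and 11.6 CPM). No mutant library overlapped WT. DF held 1.75%, TF 20.4% (10.9% without replicate 3) and TFD 6.84% of the WT mean. TFD overlapped TF, and overlapped DF through DF replicate 1 only.

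Ly6d, the surface protein shared with B lineage progenitors, was low in all 3 mutant genotypes. It had 665, 410 and 711 counts in WT (54.6, 50.7 and 63.7 CPM), 33, 32 and 8 in DF (2.62, 2.06 and 0.792 CPM), 51, 32 and 273 in TF (4.12, 2.62 and 24.9 CPM) and 35 and 39 in TFD (2.19 and 3.48 CPM). All mutant libraries lay below WT, and TF replicate 2 met the highest DF library. TF held 18.7% of the WT mean with replicate 3 and 5.98% without it, against 3.24% in DF and 5.03% in TFD. The TF excess over DF was 5.78-fold in the means and 1.85-fold without TF replicate 3.

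Pacsin1, the endocytic adaptor, had 42, 23 and 48 counts in WT (3.45, 2.85 and 4.30 CPM) and 3, 2 and 2 in DF (0.238, 0.129 and 0.198 CPM). It had 21, 19 and 122 counts in TF (1.70, 1.55 and 11.1 CPM) and 10 and 28 in TFD (0.625 and 2.50 CPM). DF and TFD lay below WT, and TF lay on both sides of it, with replicates 1 and 2 below the lowest WT library and replicate 3 above the highest. The TF mean was 136% of WT, and 46.0% without replicate 3, so the direction of TF against WT turned on that library. TF exceeded DF in every pairing of libraries, by 25.5-fold in the means and 8.63-fold without TF replicate 3.

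Per length, Ly6d was the most abundant of the 6 genes in WT and Pacsin1 the least. The WT mean RPKM (CPM per kilobase of exon) was 81.5 for Ly6d, 37.1 for Spib, 16.7 for Siglech, 11.6 for Tcf4, 4.09 for Cox6a2 and 0.799 for Pacsin1. The balance among the genes also shifted between genotypes. The ratio of Siglech to Spib, in RPKM within a library, was 0.397, 0.557 and 0.415 in WT and 1.33, 1.60 and 1.80 in TF, so each TF library, replicate 3 included, had more Siglech per Spib than any WT library. The TFD ratios of 0.227 and 0.527 and the DF ratios of 0.439, 0.0775 and 0.129 did not exceed the WT range, and the 2 lower DF ratios rest on 1 Siglech count each. The RPKM ratio of Tcf4 to Spib was 0.289 to 0.371 in WT, 1.63 to 3.41 in TF, 3.12 and 9.20 in TFD and 5.47 to 21.9 in DF.

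**Figure D2:**
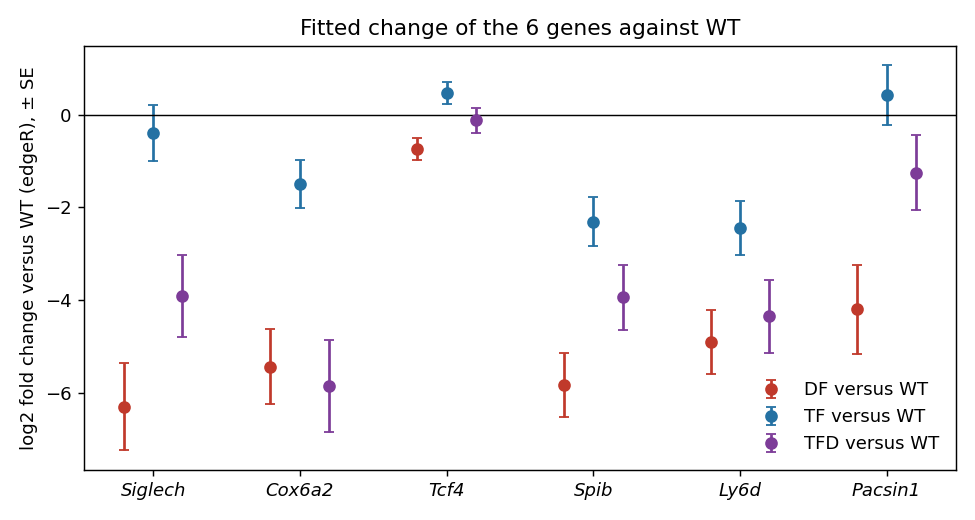
Fitted log2 fold change (edgeR) against WT for each gene, with bars of 1 standard error, in DF (red), TF (blue) and TFD (purple). TFD lies between DF and TF for Siglech, Tcf4, Spib, Ly6d and Pacsin1 and beside DF for Cox6a2, whose values rest on 0 or 1 count per library in DF and TFD.

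The comparison of TFD with WT asks whether the triple mutant marrow also had less of these transcripts. It shares the WT libraries with the comparisons used in the choice, and the genes were chosen with earlier results of these libraries known, so its p-values are not independent of the choice. Siglech, Spib and Ly6d were lower in TFD, and Tcf4 and Pacsin1 did not pass the test. By edgeR's quasi-likelihood test with Benjamini-Hochberg adjustment over 12175 genes, the log2 fold change was -3.91 for Siglech (SE 0.88, adjusted p = 0.00585), -3.93 for Spib (SE 0.70, adjusted p = 0.00141) and -4.34 for Ly6d (SE 0.78, adjusted p = 0.00157). Both TFD libraries were below all WT libraries for these genes. Cox6a2 is given as a description only, with 83 counts over the WT libraries and 1 over the TFD libraries. For Tcf4 the value was -0.12 (SE 0.27, adjusted p = 0.779), and for Pacsin1 it was -1.25 (SE 0.80, adjusted p = 0.280). Among all genes tested, 11.6% were lower and 14.7% higher in TFD than in WT. The 3 genes called kept their call in each alternative run with both TFD libraries. The fits without TFD replicate 1, without TFD replicate 2 and of libraries with few Xist counts held 1 TFD library. Their spread comes from the other genotypes, so they cannot show how far the result depends on the TFD libraries. Pacsin1 passed when only libraries with few Xist counts were used (-2.33, adjusted p = 0.00506, 1 TFD library, assumed to vary like the rest), with a term for Xist-rich libraries (-1.76, adjusted p = 0.0198) and without TF replicate 3 (-1.26, adjusted p = 0.0492).

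The pair of TFD libraries differed from each other for several of the genes. TFD replicate 2 exceeded replicate 1 by 10.5-fold for Siglech, 4.52-fold for Spib and 3.99-fold for Pacsin1, and by 1.53-fold for Tcf4 and 1.59-fold for Ly6d. Replicate 2 is the Xist-rich library of this genotype. In TF, the Xist-rich replicate 3 exceeded the mean of the other libraries by 4.56-fold for Siglech, 4.49-fold for Cox6a2, 1.98-fold for Tcf4, 3.63-fold for Spib, 7.39-fold for Ly6d and 6.84-fold for Pacsin1. In WT, the Xist-rich replicate 3 was the highest library for all but Cox6a2, with 63.7 CPM against 54.6 and 50.7 for Ly6d and 42.3 against 35.5 and 42.2 for Siglech. Within the libraries with few Xist counts (2 WT, 3 DF, 2 TF and 1 TFD), the TFD versus WT log2 fold change was -6.25 for Siglech, -5.22 for Spib and -4.58 for Ly6d, with a spread that comes from the other genotypes. There, TF versus WT was -1.49 for Siglech, -2.55 for Cox6a2, -3.10 for Spib, -3.97 for Ly6d and -0.97 for Pacsin1.

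The fitted log2 fold changes for the genotypes used in the choice were as follows, without test. In DF versus WT, where 16.6% of all genes were called lower and 21% higher, they were -6.29 for Siglech, -5.43 for Cox6a2, -0.74 for Tcf4, -5.83 for Spib, -4.90 for Ly6d and -4.20 for Pacsin1. In TF versus WT, with a background of 15.6% lower and 19% higher, they were -0.40, -1.49, 0.46, -2.30, -2.44 and 0.42 in the same order. Without TF replicate 3 these became -1.53 for Siglech, -2.55 for Cox6a2, 0.051 for Tcf4, -3.20 for Spib, -4.06 for Ly6d and -1.13 for Pacsin1. In DF versus TF, where 4.27% of all genes were lower and 1.67% higher in DF, they were -5.89 for Siglech, -3.94 for Cox6a2, -1.20 for Tcf4, -3.53 for Spib, -2.46 for Ly6d and -4.61 for Pacsin1. Comparisons with WT share the WT libraries, and DF and TF each enter 2 of these comparisons.

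Markers of the B lineage, which shares Spib, Ly6d and Tcf4 with plasmacytoid cells, were low in all 3 mutant genotypes, as Spib and Ly6d were, whereas Tcf4 lay below WT in DF only. Of 12 tested genes of an early B list, 4 (Pax5, Rag1, Vpreb1 and Vpreb3) passed the filter on low values only with the WT libraries, in which they were high, and are given as a description. The other 8, among them the factor Ebf1, were lower in DF, TF and TFD than in WT (7 by DESeq2, which gave no adjusted p for the other), where 16.6%, 15.6% and 11.6% of all genes were lower. The summed level of the list was 595 to 724 CPM in WT, 19.1 to 31.8 in DF, 26.8 to 29.2 in TFD, and 32.6, 34.7 and 103.9 in TF replicates 1, 2 and 3. Ebf1 was at -6.42 in DF, -5.49 in TF and -6.95 in TFD on the log2 scale (edgeR adjusted p from 7.6e-06 to 2.2e-05). The B cell factor Pax5 had 237 to 419 counts in WT and 0 and 3 in TFD. The recombinase gene Rag1 had 968 to 1560 counts in WT and 0 and 6 in TFD. Within TF, replicate 3 was again highest, with 50 Rag1 counts against 1 and 3. Within DF, the library with 17 Siglech counts, replicate 1, also had 23 Rag1 counts against 0 and 0 in the others. This library had 538 Xist counts beside 1628 Ddx3y counts, while DF replicates 2 and 3 had 29 and 32 Xist counts. The source of its Xist, Siglech and Rag1 reads was not tested. A mature B and plasma cell list had summed levels of 906 to 1615 CPM in WT, 225 to 271 in DF, 425 to 958 in TF and 330 to 444 in TFD. Of its 9 tested genes, 3 passed the filter only with the WT libraries, and of the other 6, 5 were lower in DF than in WT, 2 in TF (6 without TF replicate 3 and 1 by DESeq2) and 5 in TFD (3 and 2 without TFD replicates 1 and 2). The part of B cells in the values of Spib, Ly6d and Tcf4 was not tested.

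**Figure D3:**
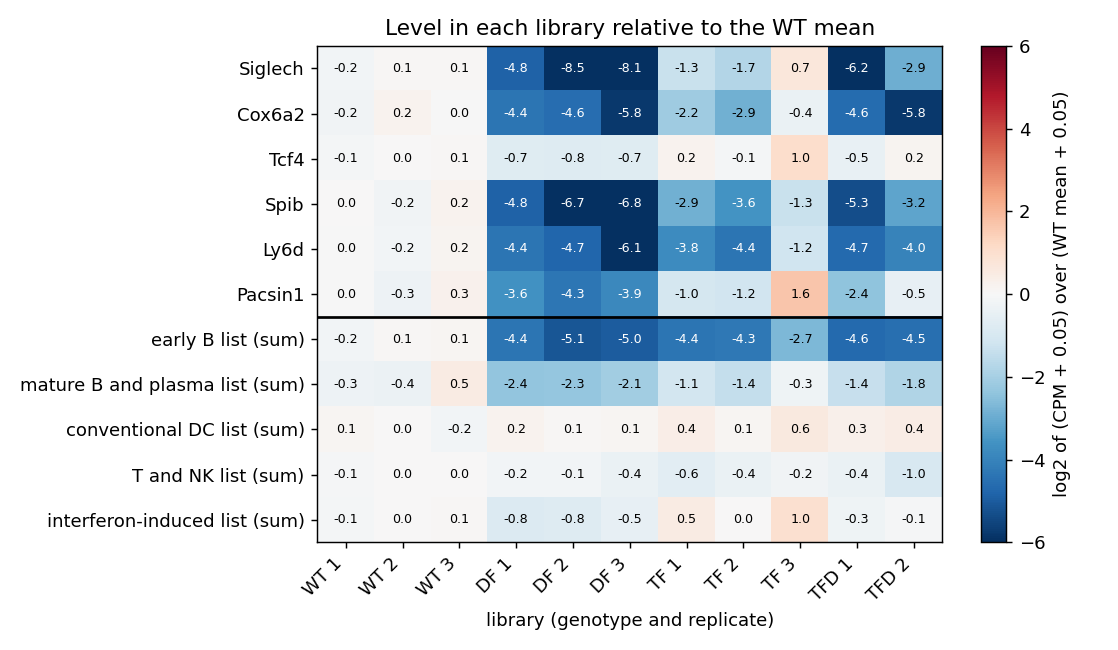
Level of each gene, and summed CPM of 5 marker lists, in each library as log2 of (CPM + 0.05) over (WT mean + 0.05), from blue (lower) to red (higher). The early B sum is low in TF replicates 1 and 2 (-4.4 and -4.3) as in DF (-5.1 to -4.4), whereas Siglech is -1.3 and -1.7 in those TF libraries and -8.5 to -4.8 in DF.

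In TF replicates 1 and 2 the early B sum was 32.6 and 34.7 CPM, near the highest DF library at 31.8, while Siglech at 15.8 and 11.9 CPM was above the highest DF library at 1.35. Of the early B genes, 1 of 12 was called lower in DF than in TF, the interleukin 7 receptor gene Il7r (-2.22, adjusted p = 0.028), and this call was lost without any 1 DF library (0.0701 to 0.107). DESeq2 called 4 of the 12 lower, and edgeR 3 without TF replicate 2, and 2 without TF replicate 1 or either TFD library. All 12 were fitted below 0 with a median of -1.52, but without TF replicate 3 only 6 were, with a median of -0.086.

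Other plasmacytoid genes were followed in 4 lists of surface proteins, further expressed genes, transcription factors and nucleic acid sensing. The lists and the 6 genes were compiled with results of these libraries known, so their counts are not independent of the choice. Of 62 tested genes, 27 were lower and 12 higher in DF than in WT, 14 lower and 21 higher in TF, and 16 lower and 11 higher in TFD, where the shares of all genes called lower were 16.6%, 15.6% and 11.6% and those called higher 21%, 19% and 14.7%. The median log2 fold changes were -0.32, 0.12 and -0.045, against medians of 0.05, 0.02 and 0.01 over all genes. Without TF replicate 3, 23 of the 62 were lower in TF than in WT and the median turned to -0.051. Without TFD replicate 2 the TFD median was -0.28, and it was -0.091 to -0.044 without any other 1 library. In DF versus TF, 19 of the 62 were lower and 2 higher in DF (4.27% and 1.67% of all genes), with a median of -0.44 against 0.02 over all genes (-0.23 without TF replicate 3). That count of 19 was 12 without TF replicate 3, and 10, 5 and 8 without DF replicates 1, 2 and 3.

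Of the 4 lists, surface genes had the largest share called lower in DF than in TF, with 8 of 13 (4.27% of all genes). Against WT, 7 were lower in DF and 5 in TFD (16.6% and 11.6% of all genes). Over all genes, the 520 called lower in DF than in TF became 278, 131 and 203 without DF replicates 1, 2 and 3. The count of 8 was 5, 2 and 4 without DF replicates 1, 2 and 3, and the TFD count was 1 and 3 without TFD replicates 1 and 2. Cd300c, an immunoglobulin-like receptor gene, had 35, 27 and 39 counts in WT, 7, 4 and 1 in DF, 50, 27 and 96 in TF and 7 and 11 in TFD. Its DF libraries lay below all WT and TF libraries and overlapped TFD, and TF reached or exceeded WT in replicates 1 and 3 (log2 fold change -3.95 in DF versus TF, SE 0.60, adjusted p = 0.0038). Ccr9, a chemokine receptor gene of plasmacytoid cells, had 156, 100 and 154 counts in WT, 8, 10 and 5 in DF, 34, 23 and 160 in TF and 11 and 23 in TFD. Of its mutant libraries, only TF replicate 3 reached the WT level. Its log2 fold change was -4.42 in DF (adjusted p = 0.00053) and -3.31 in TFD (adjusted p = 0.0067) against WT, and -3.38 in DF versus TF (adjusted p = 0.021). The TFD call of Ccr9 was lost without TFD replicate 1 (adjusted p = 0.0713), as was that of Cd300c (-2.23, adjusted p = 0.020, then 0.156), and the DF versus TF call of Ccr9 was lost without any 1 DF library (0.0653 to 0.0946). Without TF replicate 3, Ccr9 was also lower in TF than in WT (-2.48, adjusted p = 6.7e-05, against -1.04 and 0.17 with it). Bst2 (tetherin), a plasmacytoid marker in unstimulated mice that interferon induces elsewhere, was higher in TF than in WT (1.25, adjusted p = 0.004) and lower in DF than in TF (-1.60, SE 0.28, adjusted p = 0.0068). The B lineage and plasmacytoid gene Fcrla fell by 4.64 on the log2 scale in TFD (adjusted p = 0.00028). Cd209d, a C-type lectin gene, was lower in DF than in TF (-3.34, adjusted p = 0.019), a call lost without DF replicate 2 (0.0913) or 3 (0.0605).

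Among 19 further plasmacytoid genes, 8 were lower and 0 higher in DF than in TF, and the 8 became 2 without any 1 DF library and 3 without TF replicate 3. Over all genes, 4.27% were lower and 1.67% higher in DF than in TF. Against WT, 10 were lower and 3 higher in DF, 5 lower and 6 higher in TF, and 4 lower and 4 higher in TFD. The shares of all genes lower and higher were 16.6% and 21% in DF, 15.6% and 19% in TF, and 11.6% and 14.7% in TFD. In TF the 5 were 2 without TF replicate 1 and 8 without TF replicate 3, and in TFD the 4 lower were 8 without TF replicate 3 and the 4 higher were 2 without WT replicate 1 or 2 or TFD replicate 2. Plac8, expressed in plasmacytoid and other myeloid cells, was higher in each mutant, by 1.11 in DF, 0.97 in TF and 0.73 in TFD on the log2 scale (adjusted p from 7.7e-05 to 0.0035). Klk1, a kallikrein gene, showed the Siglech pattern at low counts, with 42, 23 and 44 in WT, 2, 0 and 0 in DF, 19, 9 and 74 in TF and 1 and 16 in TFD. Its log2 fold change was -5.78 in DF versus WT (SE 1.25, adjusted p = 0.0034) and -5.57 in DF versus TF (adjusted p = 0.024), the latter lost without any 1 DF library or TF replicate 3 (0.0631 to 0.121). In TFD versus WT, Klk1 had -2.34 (adjusted p = 0.095), and it passed without TFD replicate 2 (-5.56, 0.0313) and without TF replicate 3 (-2.36, 0.0186). Slc41a2, a magnesium transporter gene, had -3.20 in DF versus TF (adjusted p = 0.020), lost without any 1 DF library (0.0514 to 0.105), and -1.95 in TFD versus WT (adjusted p = 0.057), which passed without any 1 TF library (0.000758 to 0.0399). Atp1b1, a sodium pump subunit gene, and Mzb1, an endoplasmic reticulum gene of antibody-secreting and plasmacytoid cells, were lower in TFD than in WT (-2.57, adjusted p = 0.0023, and -2.45, adjusted p = 0.0014). Atp1b1 was lower than in WT in DF (-3.05, adjusted p = 0.00021) and TF (-1.63, 0.0079) as well. Mzb1 was also lower in DF than in TF (-1.56, adjusted p = 0.038), a call lost without any 1 DF library or TF replicate 3 (0.0833 to 0.129). Rpgrip1 had -1.13 in TFD versus WT (adjusted p = 0.056) and passed without TF replicate 2 (0.0274) or TF replicate 3 (0.0117).

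Of 14 transcription factor genes, 8 were lower and 2 higher in DF than in WT, 6 lower and 5 higher in TF (3 higher without WT replicate 2), and 6 lower and 3 higher in TFD. Among all genes, 16.6% were lower and 21% higher in DF, 15.6% and 19% in TF, and 11.6% and 14.7% in TFD. In DF versus TF, 3 were lower (1 without DF replicate 2), where 4.27% of all genes were lower. Ets1 and Cxxc5 were lower in each mutant, at -0.74, -1.29 and -1.24 for Ets1 and -1.34, -0.77 and -1.02 for Cxxc5 in the order DF, TF, TFD (adjusted p from 0.00018 to 0.0068). Bcl11a, a factor of plasmacytoid and B cell development, was lower in DF than in WT (-1.41, adjusted p = 0.00061). Irf8, which plasmacytoid and conventional dendritic cells and monocyte progenitors all need, was higher in each mutant, by 1.31 in DF, 1.71 in TF and 1.43 in TFD on the log2 scale (SE 0.12 to 0.13, adjusted p from 2e-06 to 1.7e-05). Its levels were 123 to 160 CPM in WT and 313 to 483 in the mutants, with no overlap. Irf7, the interferon regulatory factor through which plasmacytoid cells make interferon, was lower in DF (-0.77, adjusted p = 0.014) and higher in TF (0.81, adjusted p = 0.0099) than in WT. It had 14.1 to 21.1 CPM in DF, 27.2 to 31.0 in WT, 23.3 and 26.9 in TFD and 35.8 to 68.3 in TF, and DF versus TF was -1.58 (SE 0.22, adjusted p = 0.003). The DF versus WT call of Irf7 was lost without DF replicate 1 (0.0525) or 2 (0.0670). Runx2, which acts in plasmacytoid egress from the marrow, was lower in DF than in TF (-1.59, adjusted p = 0.0085), a call lost without DF replicate 2 (0.0625). Id3, an inhibitor of E proteins, was lower in TFD than in WT (-2.11, adjusted p = 0.0024), and Id2 did not pass in any of the 4 comparisons. Id3 had 2.475 to 3.53 CPM in WT, 0.386 to 0.792 in DF, 0.573 to 0.912 in TF and 0.535 and 0.876 in TFD.

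Of 16 nucleic acid sensing genes, 0 were lower and 2 higher in DF than in TF by edgeR, where 4.27% of all genes were lower and 1.67% higher. At an unadjusted p under 0.05, 5 were lower and 3 higher, and DESeq2 called 3 lower and 2 higher. Tlr7 was at -0.08, -0.11 and -0.31 against WT in the order DF, TF, TFD and did not pass, and Tlr9 passed in TF only (0.79, SE 0.27, adjusted p = 0.041). Unc93b1, the chaperone that carries both receptors to endosomes, and Cnpy3, another receptor chaperone, were higher in TFD than in WT (0.80, adjusted p = 0.00027, and 0.68, adjusted p = 0.0017). Plscr1, a scramblase that binds Tlr9, was lower in TFD than in WT (-1.26, adjusted p = 4.8e-05) and higher in DF than in TF (0.75, adjusted p = 0.0043). Ikbke, a kinase of the interferon pathway, was higher in DF than in TF (0.48, adjusted p = 0.023), a call lost without DF replicate 1 or 2, or TF replicate 2 or 3 (0.0540 to 0.122). These genes are also expressed in other myeloid cells.

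**Figure D4:**
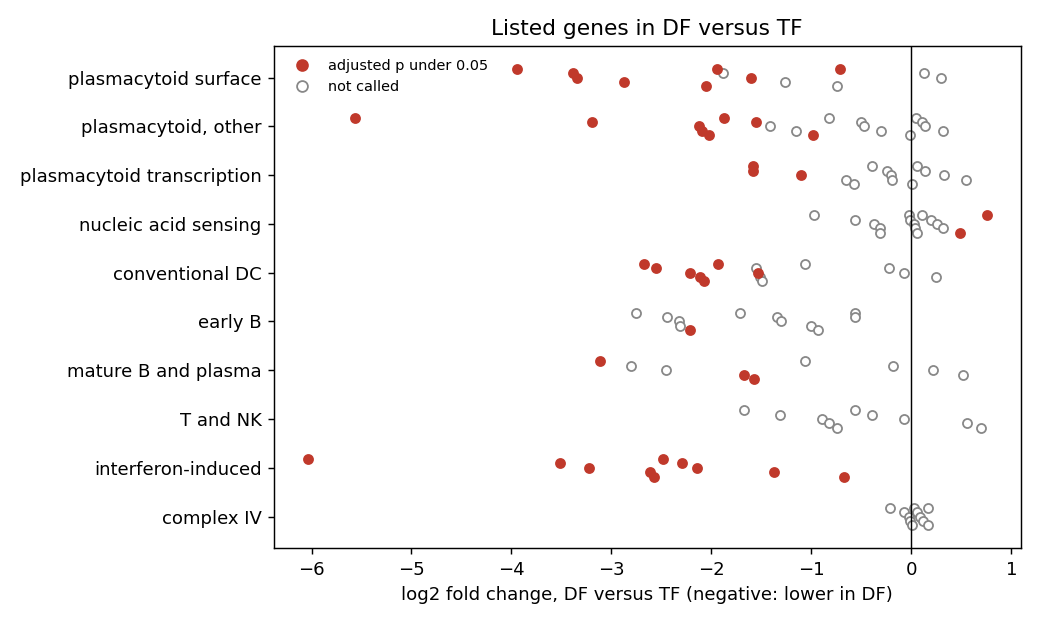
Log2 fold change in DF versus TF of each tested gene in 10 lists, 1 point per gene, filled red where the edgeR adjusted p was under 0.05. All 10 interferon-induced genes, 8 of 13 plasmacytoid surface genes and 7 of 14 conventional dendritic cell genes are filled and negative.

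The difference between DF and TF was not limited to plasmacytoid genes. All 10 genes of an interferon-induced list were lower in DF than in TF, among them Usp18 (-3.22, adjusted p = 0.0012), Ifit3 (-3.52, 0.0047) and Rsad2 (-2.61, 0.0033), whose calls held in each alternative. The calls of Ifi44 (-6.04, 0.0079), Ifit1 (-2.58, 0.014) and Isg15 (-2.15, 0.033) were lost without DF replicate 2 (0.0617, 0.0860 and 0.144), that of Ifit1 also without DF replicate 3 (0.0525), and that of Isg15 also without WT replicate 2, DF replicate 1 or 3, or TF replicate 3 (0.0505 to 0.123). Over all genes, 4.27% were lower in DF than in TF. Against WT, 8 of the 10 were lower in DF (16.6% of all genes), 5 were higher in TF (19%) and 2 were higher in TFD (14.7%). The other 8 in TFD were fitted below WT and not called, and the TFD median over the 10 was -0.45. Without DF replicate 2, 6 of the 10 were lower in DF than in TF and 5 lower in DF than in WT. The TF count of 5 was 1 or 2 without WT replicate 1 or 2 or TF replicate 1 or 3, and the TFD count of 2 was 1 without any 1 WT, DF or TFD library. The summed level was 290 to 335 CPM in WT, 181 to 225 in DF, 319 to 614 in TF and 266 to 298 in TFD. Of 14 conventional dendritic cell genes, 7 were lower in DF than in TF (4.27% of all genes), including the lineage factor Zbtb46 (-2.55, adjusted p = 0.0048) and the lectin gene Clec10a (-1.53, adjusted p = 0.014, lost without DF replicate 2 at 0.0788). The 7 became 3, 4 and 4 without DF replicate 2, DF replicate 3 and TF replicate 3. In TFD, 7 of these 14 were higher than in WT (4 without TFD replicate 2), against 14.7% of all genes, with Clec10a at 3.18 (adjusted p = 6.6e-05), Batf3 at 2.82 (0.0040) and Xcr1 at 2.82 (0.0075). TF also had 7 of the 14 higher than in WT (5 without WT replicate 2 or 3 or TF replicate 3) and 1 lower. DF had 3 higher (1 without WT replicate 3 or DF replicate 1, 6 without DF replicate 3) and 4 lower. Over all genes, 19% were higher and 15.6% lower in TF, and 21% higher and 16.6% lower in DF. Ccr7, the receptor of migrating dendritic cells and of lymphocytes, was lower in DF (-4.43), TF (-2.94) and TFD (-4.05), with edgeR adjusted p of 3.6e-05, 0.0003 and 0.00025. The part of interferon and of other dendritic cells in the DF and TF values was not tested.

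Muscle genes were followed because Cox6a2 is also a gene of muscle. Of 14 skeletal muscle genes, 3 were tested and the rest, Acta1 and Ckm among them, were not analysed here. Of these 3, Mylpf was lower in DF libraries than in WT (-1.99, adjusted p = 0.0036). It was also lower in TF (-1.35, 0.024, lost without WT replicate 2 or 3 or TF replicate 1 or 2 at 0.0519 to 0.0953) and TFD (-1.77, 0.017, lost without TFD replicate 2 at 0.103). Tnni2 was higher than in WT in TF (2.37, 0.00083) and TFD (1.45, 0.030, lost without WT replicate 1 at 0.101 or TFD replicate 2 at 0.210). Cox6a1, the isoform used in most tissues, did not pass in DF (0.37, SE 0.15), TF (0.36, SE 0.15) or TFD (0.10, SE 0.16). Of 11 tested genes of cytochrome c oxidase (complex IV), 5 were higher in DF than in WT (8 without TFD replicate 1), 5 in TF (2 to 8 without single libraries, lowest without WT replicate 2 or TF replicate 1, 3 without TF replicate 2, and 8 without either TFD library) and 2 in TFD (0 and 1 without TFD replicates 1 and 2). The shares of all genes called higher were 21%, 19% and 14.7%. With all libraries, 0 were lower in any mutant by edgeR, by DESeq2 or at an unadjusted p under 0.05, while 1 was lower in TFD without TFD replicate 1. A list of T and NK cell genes had 7 of 10 lower in DF, 5 in TF (2 without TF replicate 1, and 3 without TF replicate 2 or WT replicate 1) and 6 in TFD, where 16.6%, 15.6% and 11.6% of all genes were lower, with perforin (Prf1) at -1.86 in TFD (adjusted p = 0.0039). Between DF and TF, 0 of the 10 passed by edgeR, while 4 were lower and 1 higher at an unadjusted p under 0.05. DESeq2 called 2 lower in DF than in TF, and edgeR 3 without TF replicate 2 and 1 with library totals.

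Relatives of the 6 genes did not share their pattern as families. Of 17 tested relatives, 7 were lower and 4 higher in DF than in WT, 5 lower and 2 higher in TF, and 7 lower and 0 higher in TFD. The 4 higher in DF were 2 without WT replicate 3. The 5 lower in TF were 8 without TF replicate 3 and 3 without WT replicate 2 or TF replicate 1, and the 2 higher in TF were 1 without WT replicate 2 or 3, any 1 DF library or TF replicate 1. The 7 lower in TFD were 4 without either TFD library, and 1 was higher in TFD without WT replicate 1, TF replicate 3 or TFD replicate 2. The shares of all genes were 16.6%, 15.6% and 11.6% lower and 21%, 19% and 14.7% higher. Siglec1, Cd22 and Ly6a were lower in DF than in TF. The DF versus TF calls of Cd22 (-3.11, adjusted p = 0.028) and Ly6a (-2.06, 0.039) were lost without any 1 DF library (0.0655 to 0.135), and that of Ly6a also without WT replicate 2 or 3 or TF replicate 3 (0.0506 to 0.0836). Both were also lost with only the groups compared (0.0678 for Cd22 and 0.0818 for Ly6a) and with the Xist term (0.0592 and 0.106). The E protein genes Tcf3 and Tcf12 were lower in all 3 mutants (DF, TF and TFD in that order), at -0.87, -0.63 and -0.88 for Tcf3 and -0.69, -0.49 and -0.67 for Tcf12 (adjusted p from 0.00033 to 0.0057), whereas Tcf4 was fitted at 0.46 in TF (0.051 without TF replicate 3) and -0.12 in TFD. Among the Siglec genes, Siglecg and Cd22, both of B cells, were lower in TFD than in WT (-1.08, adjusted p = 0.00043, and -3.43, adjusted p = 0.0061, the latter lost without TFD replicate 1 at 0.0594). Siglec1, a macrophage gene induced by interferon, was lower in DF than in TF (-2.56, adjusted p = 0.010, lost without DF replicate 2 at 0.0688). Siglece had -0.52 in TFD (adjusted p = 0.039), which 6 of the 11 single libraries could remove (0.0514 to 0.291: WT replicates 1 and 2, each DF replicate and TFD replicate 2). Cd33, Mag and Siglecf did not pass in TFD. Of the Ets relatives of Spib, Spic was lower in TFD (-1.62, adjusted p = 0.022, lost without WT replicate 3 or either TFD library at 0.0649 to 0.0942), and Spi1 did not pass in TFD (0.28, SE 0.16). Ly6a was lower in TFD (-2.02, adjusted p = 0.020, lost without either TFD library at 0.0616 and 0.116), Ly6c2, Ly6e and Ly6i did not pass there, and nor did Pacsin2 (0.20, SE 0.10).

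Likeness to each gene was measured as the root mean square difference between mean-centred log2 CPM over the 11 libraries, where 0 is an identical pattern. The nearest gene to Siglech was Spib (1.28), followed by Epha2 (1.65), Cd300c (1.66), Sh2d4a (1.67) and Pacsin1 (1.70), against a median of 3.36 over all genes. Epha2, an ephrin receptor gene, had 15.7 to 17.8 CPM in WT, 0.579 to 1.98 in DF, 3.47, 4.17 and 15.6 in TF and 0.688 and 4.81 in TFD. Nearest to Cox6a2 were Hspa1b (1.13), Ly6d (1.18), Car1 (1.20), Sphk1 (1.25) and Aldh1a7 (1.26), against a median of 2.68, and these distances depend on the prior count since Cox6a2 had 0 or 1 count in each DF and TFD library. The points share libraries and depth, and no test was made.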

How the data were processed

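RNA of whole bone marrow mononuclear cells, depleted of globin transcripts, was sequenced from stranded total RNA libraries. The authors checked reads with FastQC, aligned them with STAR to mm10, counted unique alignments on refGene genes with featureCounts and retained genes above 0.5 CPM in more than 3 samples. Tool versions and the strand setting were not given in the sources used here. The authors deposited raw counts and log2 CPM for 12199 genes, with a column of another kind, gene length. The deposited log2 CPM values match edgeR's cpm with a prior count of 0.25 to within 5e-09. RPKM and all other values were computed here from the deposited counts.

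Counts were fitted in R 4.3.3 with edgeR 4.0.16 (TMM factors 0.924 to 1.04, 4 genotype means, quasi-likelihood F test, two-sided). Genes above 0.5 CPM in more than 3 libraries (12175, with 24 removed) were tested. P-values were adjusted by Benjamini-Hochberg over all of them, and calls were made at adjusted p under 0.05. Library totals of 8274153 to 15900904 and 2 or 3 libraries per genotype limit precision. The labels do not say that libraries came from separate animals, so p-values measure only the spread between these samples. Groups follow the sample labels. Named genes were the members, targeted genes, tested relatives, up to 4 genes per list with the largest called change in TFD versus WT or DF versus TF with the first 2 of each list, and the 5 genes most like Siglech and Cox6a2. Il7r, Id2, Plac8, Ets1, Cxxc5 and Bcl11a were named after their values were seen, and not every gene the rule selects is reported here. Members and lists were chosen with earlier results of these data known. The procedure was tested on simulated counts. Alternatives were DESeq2 1.42.0, RLE factors, library totals, no filter, only the groups compared, a replicate block, an Xist term (libraries with 10000 or more Xist counts) and each library left out. A fit of libraries with fewer Xist counts was added after seeing the data. Figures used matplotlib 3.10.9.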

Additional observations from a re-analysis of the deposited data

How the results depend on the processing

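The TFD versus WT calls of Siglech, Spib and Ly6d held in each alternative with both TFD libraries. Over all 19 alternatives, those with 1 TFD library included, the log2 fold changes were -6.28 to -2.92, -5.32 to -3.16 and -4.67 to -4.02. Pacsin1 moved past the threshold in 3 alternatives: with the Xist term (-1.76), in libraries with few Xist counts (-2.33) and without TF replicate 3 (single-library range -2.48 to -0.51). Tcf4 in TFD versus WT turned positive with the replicate block (0.0024) and without TFD replicate 1 (single-library range -0.45 to 0.16), with no call. Pacsin1 in TF versus WT turned negative with the replicate block (-0.016), the Xist term (-0.0373), in libraries with few Xist counts (-0.97) and without TF replicate 3 (range -1.13 to 0.84). In libraries with few Xist counts, TF versus WT was also -1.49 for Siglech, -2.55 for Cox6a2 and -3.97 for Ly6d, and DF versus TF was -0.86 for Ly6d and -3.11 for Pacsin1. Leaving out single libraries gave -1.53 to -0.021 for Siglech, -2.55 to -1.07 for Cox6a2, -3.20 to -1.93 for Spib and -4.06 to -1.97 for Ly6d in TF versus WT. In DF versus TF the ranges were -8.43 to -4.77 for Siglech, -2.93 to -0.84 for Ly6d and -5.04 to -3.08 for Pacsin1. In DF versus WT they were -8.84 to -5.66 for Siglech, -6.80 to -5.47 for Spib and -0.83 to -0.73 for Tcf4. Tcf4 in DF versus WT was -0.83 with library totals and -0.55 with the Xist term, which gave Pacsin1 -3.61. The 14 listed plasmacytoid genes lower in TF than in WT became 24 in libraries with few Xist counts and 11 to 23 without single libraries. The 19 lower in DF than in TF ranged from 5 to 26 without single libraries, where fewer samples were tested. The 2 higher in DF than in TF became 1 with library totals, with only the groups compared and in libraries with few Xist counts, and 1 to 3 without single libraries. Dnmt3a in DF versus WT, not called, turned to 0.0036 with the Xist term and 0.011 in libraries with few Xist counts, and ranged from -0.4166 to 0.0071 without single libraries. Replicate numbers did not pair the samples, since 3 of 15 same-number pairs had correlated deviations above 0.1 (range -0.325 to 0.277). With the replicate block, Spic (adjusted p = 0.0509) and Siglece (0.0674) in TFD versus WT and Ly6a (0.0617) in DF versus TF lost their edgeR calls, and Slc41a2 in TFD versus WT gained one (0.0458). The replicate block also turned the TFD versus WT median of the 62 plasmacytoid genes to 0.044 and raised the mature B genes called lower in TF from 2 to 5. With only the groups compared, Slc41a2 (0.0501), Mzb1 (0.0749), Ikbke (0.0523) and Il7r (0.0589) in DF versus TF and Siglece in TFD versus WT (0.0571) lost theirs, as did Mzb1 with the Xist term (0.0634) and Ikbke with library totals (0.0626). Klk1, Slc41a2 and Rpgrip1 in TFD versus WT gained calls with only the groups compared (0.0176, 0.00056 and 0.0160) and with the Xist term (0.0085, 0.0045 and 0.0053). Rpgrip1 also gained one with DESeq2 (0.0362), and Ccr9 in TF versus WT with the Xist term (0.0118). In libraries with few Xist counts, with 1 TFD library, Klk1, Slc41a2 and Rpgrip1 were at -5.46, -2.24 and -1.43 in TFD versus WT. Siglece, Mylpf and Tnni2 were at -0.36, -1.30 and 1.17 there. Mzb1 (-0.86), Ikbke (0.45) and Isg15 (-1.42) lost their DF versus TF calls in that setting. The cause of these changes was not tested. Depth limits Cox6a2 in DF and TFD, and Siglech in DF replicates 2 and 3, where there was 0 or 1 count in each library.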
